A study of Prunus persica with 18 samples.

Results

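PpFT (PRUPE_6G364900), PpTFL1 (PRUPE_7G112600) and PpCEN (PRUPE_6G128400) are the peach genes that the study names FLOWERING LOCUS T, TERMINAL FLOWER1 and CENTRORADIALIS-like. They are 3 of the 26873 genes in the count table, and were taken by their identifiers. All 3 were among the 19754 genes that passed the filter on low counts. Their lowest raw count in any library was 36.

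The genes were followed in axillary buds of the flat-nectarine cultivar Platinet 1, taken in 1 orchard from shoots that had received no gibberellin. Sampling dates are counted in days after full bloom (DAFB), with T1 at 45, T3 at 58 and T5 at 79 DAFB, and the buds of the apical and of the basal part of a shoot were excised separately. This gives 6 groups of 3 biological replicates, each a pool of buds from several shoots, for 18 libraries. The libraries held from 21114469 to 47286272 counts. Apical T3 replicate 1 stood apart from its group: the chi-square per gene between its counts and those of the other apical T3 libraries was 119.5 and 125, against 9.92 between those 2. Apical T5 replicate 1 differed too, with 45.6 and 28.1 against 12.9. Values at T3 and T5 that turn on either library are also given without it. No leaf or bud marker list could be checked, since the identifiers could not be paired with gene names here.

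FT, TFL1 and CEN belong to the same small family of phosphatidylethanolamine-binding proteins, and act in opposite directions. In Arabidopsis, FT is the mobile florigen, made in the leaf, that joins the bZIP factor FD at the shoot apex and switches on floral identity genes such as APETALA1. TFL1 competes for FD and keeps the meristem vegetative or indeterminate. CEN is the counterpart of TFL1 in Antirrhinum, where its loss lets the inflorescence end in a flower. The counts of a promoter and its antagonists can be compared within each library, where the ratio of 2 counts does not depend on how libraries are scaled to each other. These are RNA counts in whole buds, and the proteins acting at the apex were not measured.

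Levels are given below as normalized counts, which are raw counts divided by the TMM-scaled size of the library and multiplied by the mean library size. A gene passed the test with an adjusted p below 0.01 (quasi-likelihood test of edgeR, Benjamini-Hochberg adjusted over all tested genes), and was a DEG when it also changed at least 2-fold. In whole buds, fewer cells of a type and less RNA per cell cannot be told apart.

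PpFT had 99.4, 115 and 125 normalized counts in the 3 apical libraries of T1, replicates 1 to 3. The apical libraries of T3 had 188, 186 and 185, and those of T5 had 203, 271 and 306. Each apical time point was thus entirely above the one before, an order seen in 3.83% of all tested genes. The 3 apical T3 libraries were close to each other, with a coefficient of variation of 0.808% where counting error alone would give about 7.42%.

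In basal buds, PpFT had 164, 106 and 102 normalized counts at T1 and 146, 178 and 108 at T3. At T5 it had 245, 273 and 201. The T1 and T3 libraries overlapped, and all T5 libraries were above both, as in 28.6% of all genes. By mean level, apical and basal T5 buds came first, followed by apical T3, basal T3, basal T1 and apical T1. Overlap occurred between apical and basal T5, between basal T3 and basal T1, and between basal T1 and apical T1. The highest group mean was 2.29 times the lowest, the narrowest span of the 3 genes, or 2.54 times without apical T5 replicate 1.

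PpTFL1 had its highest means at T3 in both positions. Its apical libraries had 502, 387 and 437 normalized counts at T1, 1072, 909 and 713 at T3 and 244, 202 and 309.9 at T5. The basal libraries had 336, 390.0 and 326 at T1, 631, 669.5 and 569 at T3 and 375, 317 and 243 at T5. No library of T1 or T5 reached the lowest T3 library of either position, which held for 0.577% of all genes. The change from T1 to T3 was not tested. Apical T3 stood highest, with no overlap with basal T3. The other 4 groups, from apical T1 down to apical T5, overlapped with their neighbours in the order. The highest group mean was 3.56 times the lowest, and 3.22 times without apical T3 replicate 1.

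PpCEN had 231, 237 and 256 normalized counts in the basal libraries of T1. The basal T3 libraries had 142, 128 and 164, and those of T5 had 65.3, 63.9 and 44.6. Basal buds therefore had a lower PpCEN level in every library at each successive time, an order seen in 7.22% of all genes.

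Apical buds did not show such steps. PpCEN had 227, 181 and 144 normalized counts at T1, 272, 147 and 170.4 at T3, and 91.5, 144 and 176 at T5. The 3 apical groups overlapped with each other, and their replicates differed by up to 1.92-fold within a group. The basal T5 libraries were below all others, as in 5.77% of all genes, and the highest group mean, that of basal T1, was 4.16 times its mean. All other neighbours in the order overlapped.

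**Figure D1:**
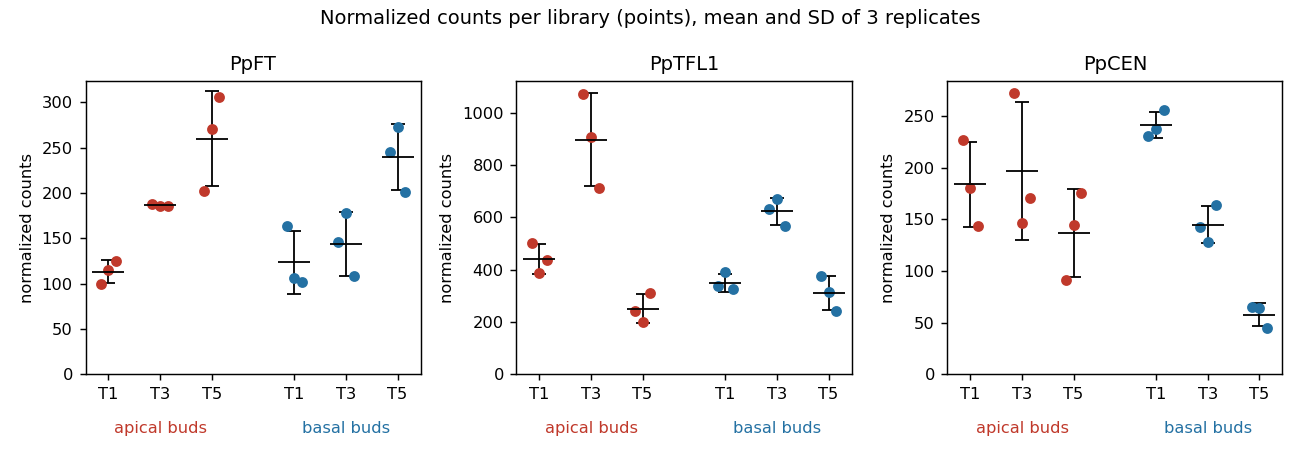
Normalized counts of PpFT, PpTFL1 and PpCEN (vertical axes, starting at 0) in apical and basal buds at T1, T3 and T5. Points are libraries, and bars are the mean and SD of 3 replicates. PpTFL1 is highest at T3 in both positions, while the basal T5 libraries of PpCEN, from 44.6 to 65.3, lie below all others.

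At T1, none of the 3 genes passed the test between apical and basal buds, where 12.4% of all tested genes passed and 4.91% were DEGs. PpFT had a log2 fold change, apical over basal, of -0.12 (standard error, SE, 0.22, adjusted p = 0.741). The means of PpTFL1 were 442 ± 58.1 in apical and 351 ± 34.3 in basal buds (SD, n = 3), with a log2 fold change of 0.33 (SE 0.18, adjusted p = 0.207 in edgeR). PpCEN was on the other side, at 184 ± 41.5 in apical and 241 ± 12.9 in basal buds (SD, n = 3), with a log2 fold change of -0.40 (SE 0.24, adjusted p = 0.263 in edgeR). Its apical and basal libraries did not overlap, but this held for 56.8% of all tested genes at T1.

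At T3, the 3 apical means were all above the basal ones, and again none passed the test, where 27.7% of all genes passed and 9.15% were DEGs. PpTFL1 came nearest, with 898 ± 179.5 in apical and 623 ± 50.8 in basal buds (SD, n = 3) and a log2 fold change of 0.53 (SE 0.18, adjusted p = 0.023 in edgeR). Among the fits that left out a library, its adjusted p was under 0.01 only without apical T3 replicate 3 (0.00763). The log2 fold change of PpFT was 0.38 (SE 0.21, adjusted p = 0.147) and that of PpCEN was 0.45 (SE 0.25, adjusted p = 0.142). The groups did not overlap for PpFT and PpTFL1, as for 53.6% of all genes at T3. The highest apical T3 values of PpTFL1 and PpCEN both came from replicate 1, the library that stood apart. Without it, the log2 fold change was 0.38 for PpTFL1 (adjusted p = 0.099) and 0.14 for PpCEN (adjusted p = 0.675), and 1275 genes were DEGs at T3 in place of 1808.

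At T5, PpCEN had 137 ± 42.6 normalized counts in apical and 57.9 ± 11.6 in basal buds (SD, n = 3). This is a 2.32-fold difference with no overlap of libraries, and a log2 fold change of 1.21 (SE 0.27). The adjusted p of 0.0108 from edgeR's quasi-likelihood test missed the limit by little, while DESeq2 gave an adjusted p of 0.00039. Only 3.26% of all genes passed at T5, 1.2% were DEGs and 29.0% had groups without overlap. Of the tested genes, 2.28% had a larger change than PpCEN in either direction. When each library was omitted in turn, edgeR's adjusted p lay between 0.0021 and 0.0566. It was under 0.01 in 3 of 18 such fits, without apical T3 replicate 1 (0.0021), without apical T3 replicate 2 (0.00839) and without apical T5 replicate 1 (0.00255). With libraries of equal time and replicate number as a block it was 0.0391, with the compared groups alone 0.0339, and with libraries scaled to TEF2 and UBQ10 0.0614. The library that stood apart at T5, replicate 1, had the lowest apical values of PpCEN and PpFT. Without it the log2 fold change of PpCEN was 1.44, and 489 genes were DEGs at T5 in place of 238.

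PpFT and PpTFL1 did not follow PpCEN at T5. The means of PpFT were 259.8 ± 52.5 in apical and 239.5 ± 36.3 in basal buds (SD, n = 3), with a log2 fold change of 0.11 (SE 0.20, adjusted p = 0.794 in edgeR). PpTFL1 had 252 ± 54.3 and 312 ± 66.2 (SD, n = 3), with a log2 fold change of -0.32 (SE 0.19, adjusted p = 0.320 in edgeR). The apical and basal libraries overlapped for both genes.

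From T1 to T5 in apical buds, PpFT rose 2.28-fold and PpTFL1 fell 1.76-fold by the TMM scaling, while PpCEN did not pass the test. The log2 fold change of PpFT, T1 over T5, was -1.19 (SE 0.21, adjusted p = 0.000129), and PpFT was the only DEG of the 3. The log2 fold change of PpTFL1 was 0.82 (SE 0.18, adjusted p = 0.0011), and that of PpCEN was 0.43 (SE 0.25, adjusted p = 0.145). In this contrast 47.4% of all genes passed, 23.7% were DEGs and 69.1% had groups without overlap, so that PpFT and PpTFL1 were among many. In all 18 fits that left out a library PpFT stayed a DEG and PpTFL1 stayed under an adjusted p of 0.01, with the highest at 0.00123 and 0.00874.

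In basal buds, PpCEN was the antagonist that passed the test. It fell 4.13-fold and was a DEG (log2 fold change 2.05, SE 0.27, adjusted p = 7.8e-06). PpTFL1 had a log2 fold change of 0.17 (SE 0.18, adjusted p = 0.467). PpFT had a log2 fold change of -0.96 (SE 0.21, adjusted p = 0.00114), under a 2-fold change. It was a DEG without basal T1 replicate 1 or basal T5 replicate 3, and its adjusted p was above 0.01 without basal T1 replicate 2 (0.0105) or replicate 3 (0.0111). In basal buds 42.1% of all genes passed and 19.0% were DEGs between T1 and T5. The study's qPCR, normalized to TEF2 and UBQ10, found PpFT largely stable in basal buds, with a low correlation to RNA-Seq there. For apical buds the study reported a rise of PpFT between T1 and T5. It also reported PpTFL1 highest at T3 in both bud types, and PpCEN falling over the experiment.

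The difference between positions in this change was tested as an interaction in the same fit, in which 2.73% of all genes passed and 1.87% also differed at least 2-fold. For PpCEN the apical change was smaller than the basal one by 1.61 on the log2 scale (SE 0.36, adjusted p = 0.0124), above the limit in edgeR. DESeq2 gave an adjusted p of 0.000658. Among the fits that left out a library, 3 of 18 were under 0.01, without apical T3 replicate 1 (0.00263), without apical T3 replicate 2 (0.00973) and without apical T5 replicate 1 (0.00373), and the highest was 0.0314. With the replicate block the adjusted p was 0.0372, and with libraries scaled to TEF2 and UBQ10 it was 0.0559, for a difference of -1.37. PpTFL1 had an interaction of 0.65 (SE 0.26, adjusted p = 0.136) and PpFT of -0.23 (SE 0.30, adjusted p = 0.707).

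**Figure D2:**
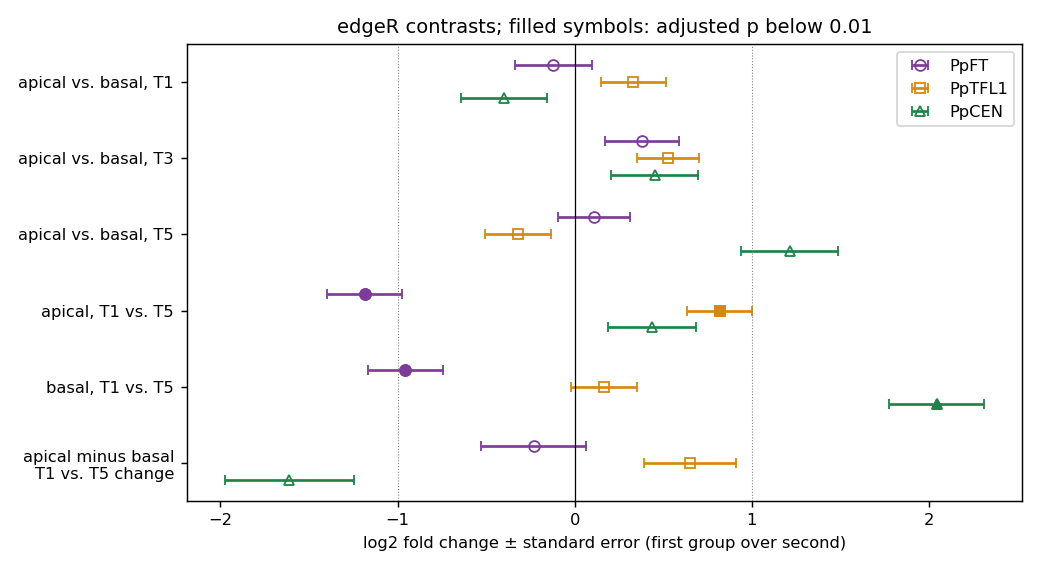
Log2 fold changes with standard errors of PpFT, PpTFL1 and PpCEN in 6 contrasts (horizontal axis, first group over second; dotted lines mark a 2-fold change). Filled symbols have an adjusted p below 0.01: PpFT in both T1 vs. T5 contrasts, PpTFL1 in apical and PpCEN in basal T1 vs. T5. No symbol of apical vs. basal is filled.

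The sign of PpFT over time depends on a scaling that moves all genes together, while PpTFL1 and PpCEN kept their sign under the 4 scalings tried. The genes TEF2 (PRUPE_4G138900, a translation elongation factor) and UBQ10 (PRUPE_4G204900, a polyubiquitin) served the study as references in qPCR. With these references the study reported a rise of PpFT in apical buds between T1 and T5. In apical buds TEF2 had 829 ± 25.3 normalized counts at T1 and 3572 ± 567 at T5 (SD, n = 3), and UBQ10 had 20876 ± 1092 and 39256 ± 5719. These references moved by unlike amounts, with log2 fold changes, T1 over T5, of -2.11 for TEF2 and -0.91 for UBQ10. Scaling to either of them alone was not tested. With the libraries scaled to the geometric mean of both genes, the median log2 fold change of all tested genes between apical T1 and T5 moved from -0.0048 to 1.48. That of PpFT became 0.32 (SE 0.24, adjusted p = 0.216), the opposite sign. Those of PpTFL1 and PpCEN became 2.30 (SE 0.26, adjusted p = 3.92e-08) and 1.95 (SE 0.29, adjusted p = 2.45e-06). Relative to the median gene, PpFT was at -1.16 with this scaling and -1.18 with TMM, and PpCEN at 0.47 and 0.44, while PpTFL1 was at 0.82 in both. In basal buds the median moved to 1.32, PpFT came to 0.33, or -0.98 relative to the median in both scalings, and PpTFL1 came to 1.43 (adjusted p = 2.08e-05). The fall of PpCEN in basal buds kept its direction, at 3.32 (adjusted p = 7.11e-09).

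**Figure D3:**
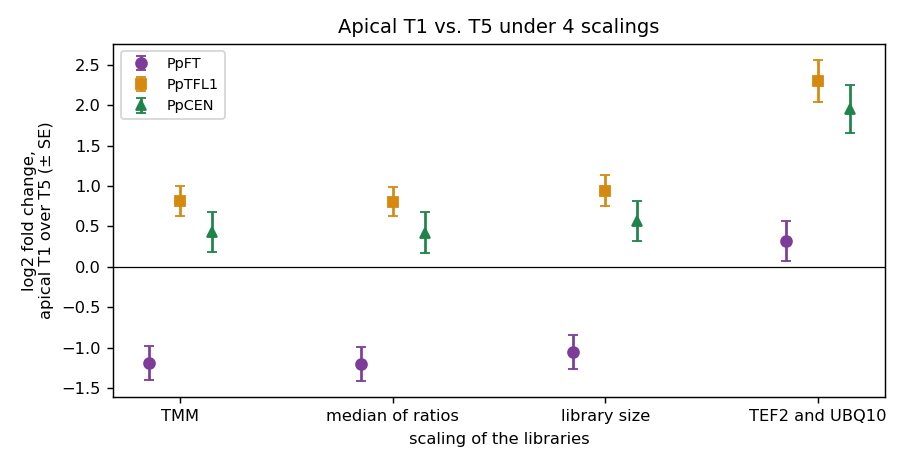
Log2 fold change of the 3 genes between apical T1 and T5 (vertical axis, T1 over T5, with standard errors) under 4 scalings of the libraries. TMM, median-of-ratios and library-size scaling place PpFT between -1.20 and -1.06, and scaling to TEF2 and UBQ10 places it at 0.32 and moves all 3 genes by a like amount.

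The ratios within libraries are free of this choice. They are ratios of raw counts, not corrected for the length of the transcripts, so that a value can be compared between libraries but is not a ratio of molecules. Intervals are exact (Clopper-Pearson) at 95% and cover counting error only. Ratios of other pairs of genes were not taken, so the share of pairs that also separate the groups is not known. Among single genes, 69.1% had no overlap between apical T1 and T5. An absence of overlap below is therefore not particular to these genes as far as is known.

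PpTFL1 had 5.05, 3.35 and 3.49 counts per count of PpFT in the apical libraries of T1, and 5.70, 4.89 and 3.85 in those of T3. At T5 the apical ratios were 1.202, 0.746 and 1.01, with intervals from 1.02 to 1.42, from 0.622 to 0.895 and from 0.840 to 1.22. The antagonist thus exceeded PpFT several times in counts at T1 and T3, and the counts were near parity at T5. The geometric mean fell from 3.89 at T1 to 0.969 at T5, a 4.02-fold change without overlap.

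In basal buds the TFL1/FT ratio was 2.05, 3.67 and 3.21 at T1, 4.33, 3.77 and 5.27 at T3 and 1.53, 1.16 and 1.21 at T5. Apical and basal libraries overlapped at all 3 times, and the log2 difference at T3, 0.11, was -0.024 without apical T3 replicate 1. Averaged over the positions, the log2 ratio was higher at T1 than at T5 by 1.59, and the T1 and T5 libraries did not overlap in either position. The exact permutation test (two-sided, labels permuted within positions) gave p = 0.005, the smallest that its 400 assignments allow (adjusted p = 0.015 over 6 ratio tests). Averaged over the times, the log2 ratio was higher in apical buds by 0.041, and the direction was lost without any of 4 libraries (exact permutation test within time points, p = 0.811).

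PpCEN had 2.28, 1.57 and 1.15 counts per count of PpFT in apical buds at T1, 1.45, 0.789 and 0.920 at T3 and 0.451, 0.532 and 0.575 at T5. The basal ratios were 1.41, 2.23 and 2.52 at T1, 0.977, 0.722 and 1.52 at T3 and 0.266, 0.234 and 0.222 at T5. Positions overlapped at T1 and T3, and at T5 each apical library was above each basal one, by 2.15-fold on average. From T1 to T5 the ratio fell 3.10-fold in apical and 8.29-fold in basal buds, without overlap in either. Over both positions the difference was 2.34 on the log2 scale, higher at T1 (exact permutation test, p = 0.005, the smallest possible, adjusted p = 0.015).

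The ratio of the 2 antagonists moved differently in the 2 positions. In basal buds PpCEN had 0.686, 0.609 and 0.784 counts per count of PpTFL1 at T1, 0.226, 0.191 and 0.288 at T3 and 0.174, 0.202 and 0.184 at T5. In apical buds it had 0.451, 0.467 and 0.329 at T1, 0.254, 0.161 and 0.239 at T3 and 0.375, 0.712 and 0.567 at T5. Both positions had lower ratios at T3 than at T1 in every library. At T5 every apical ratio was above every apical T3 ratio, whereas the basal T3 and T5 ratios overlapped.

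The apical CEN/TFL1 ratio was thus below the basal one at T1, by 1.68-fold, and above it at T5, by 2.86-fold, and the positions overlapped at T3. At T1 and at T5 the positions did not overlap. A comparison of 2 groups alone could not reach 0.05, since an exact two-sided permutation of 3 against 3 libraries gives no p under 0.1. In apical buds the T1 and T5 ratios overlapped, with a log2 difference of -0.38 (higher at T5), while in basal buds the log2 difference was 1.89. The difference between these changes, -2.26, was tested after the values were seen (exact permutation test, position labels permuted within T1 and within T5, p = 0.005, the smallest possible; adjusted p = 0.015 over 3 ratios). With labels exchanged only between libraries of equal time and replicate number, the exact permutation p was 0.0313, the smallest that 64 assignments allow. It was 0.0938 adjusted over 3 ratios. The test planned over all times, which averages the opposite differences of T1 and T5, gave 0.22 on the log2 scale (exact permutation test, p = 0.457). Over both positions, T1 exceeded T5 by 0.76 in log2 (exact permutation test, p = 0.09, adjusted p = 0.18).

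**Figure D4:**
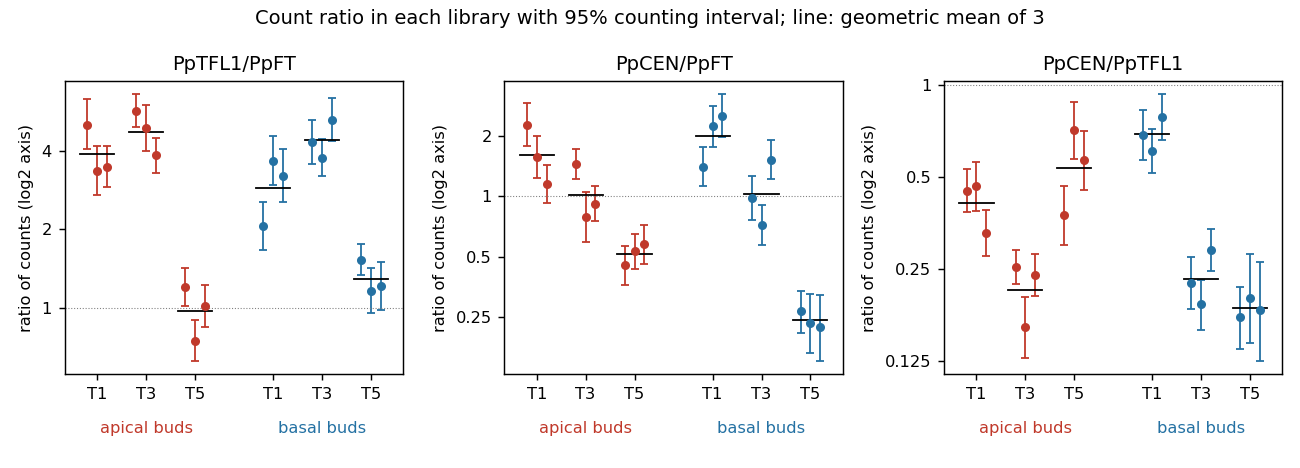
Counts of 1 gene per count of another in each library (points, log2 axes) with 95% counting intervals, and the geometric mean of 3 replicates (lines). The TFL1/FT ratio is between 0.746 and 1.53 in all T5 libraries and at least 2.05 in all others, and the CEN/TFL1 ratio at T5 is higher in apical than in basal buds.

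Expressed as shares of the summed counts of the 3 genes, apical buds at T5 had 40.1% ± 3.34 PpFT, 39.1% ± 6.27 PpTFL1 and 20.9% ± 3.37 PpCEN (SD, n = 3). Basal buds at T5 had 39.5% ± 3.29 PpFT, 51.0% ± 3.29 PpTFL1 and 9.48% ± 0.325 PpCEN. The share of PpFT was thus almost the same, and the shares of the antagonists were divided differently. At T1 the share of PpFT was 15.5% ± 3.10 in apical and 17.3% ± 4.47 in basal buds.

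Other flowering genes that the study names were taken as a list of 3. PpAP1 (PRUPE_1G290600), a floral identity gene downstream of FT in Arabidopsis, had few counts, between 6 and 37 per library. In apical buds it rose by the TMM scaling, from 12.6 ± 4.22 at T1 to 30.6 ± 3.31 normalized counts at T5 (SD, n = 3; log2 fold change -1.28, SE 0.38, adjusted p = 0.00877 in edgeR). Without apical T5 replicate 1 the adjusted p was 0.0167, above the limit. In basal buds it had 16.0 ± 1.89 and 13.6 ± 9.11, with an adjusted p of 0.551. Between positions at T5, PpAP1 was 2.39-fold higher in apical buds, and its adjusted p of 0.0551 in edgeR missed the limit. Its apical and basal libraries did not overlap, as for 29.0% of all genes at T5. PpSPL9.1 and PpSPL9.2, which encode SQUAMOSA promoter-binding factors, fell 3.59-fold and 3.98-fold from T1 to T5 in apical buds. All 3 genes of the list were thus DEGs in apical T1 vs. T5, where 23.7% of all genes were, 1 rising and 2 falling. PpSPL9.1 and PpSPL9.2 also fell in basal buds, by 4.02-fold and 2.89-fold, and were DEGs there, as were 19.0% of all genes. At T5 they were 1.43-fold and 1.62-fold higher in apical buds and passed (adjusted p = 0.00795 and 0.00741 in edgeR), as did 3.26% of all genes. Without apical T5 replicate 1 the adjusted p was 0.0178 and 0.011, above the limit. PpSPL9.2 was also a DEG between positions at T1, 2.24-fold higher in apical buds, as were 4.91% of all genes.

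The mitotic cyclins PpCYCB1.2 and PpCYCB1.4 fell 6.72-fold and 4.48-fold from T1 to T5 in apical buds, and 3.64-fold and 3.01-fold in basal buds. At T1 PpCYCB1.2 was 1.90-fold higher in apical than in basal buds (adjusted p = 0.00143 in edgeR), where 12.4% of all genes passed. PpCYCB1.4 was 1.68-fold higher at T1 (adjusted p = 0.0197 in edgeR, above the limit). At T3 the cyclins were 2.69-fold and 2.86-fold higher in apical than in basal buds, or 2.68-fold and 2.54-fold without apical T3 replicate 1. At T5 their positions overlapped, with folds of 1.03 and 1.13. Their part in the changes of PpTFL1 and PpCEN was not tested.

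For each of the 3 genes, the most similar pattern among 19753 other tested genes was sought by Pearson's correlation of log2 CPM across the 18 libraries, which share their time points and positions. The nearest to PpFT was PRUPE_3G198500 (r = 0.92), with means of 94.1 and 269.6 normalized counts in apical T1 and T5. The nearest to PpTFL1 was PRUPE_7G236200 (r = 0.93), at 147, 208 and 53.3 in apical T1, T3 and T5. The nearest to PpCEN was PRUPE_5G148500 (r = 0.92), at 5929, 4494 and 2805 in basal T1, T3 and T5. In apical buds its means were 5873, 5358 and 3983 at these times. Among the 3 genes themselves, r was -0.26 between PpFT and PpTFL1, -0.54 between PpFT and PpCEN and 0.40 between PpTFL1 and PpCEN.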

How the data were processed

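The authors sequenced stranded mRNA libraries, used Hisat2 for alignment against the v2.0.a1 peach assembly, and counted reads per gene with HTSeq. The deposited values are raw counts of 26873 genes, of which 3023 had no count. How the counting used strand and shared reads is not given in the sources used here. From these counts, edgeR 4.0.16 in R 4.3.3 was run with filterByExpr, TMM factors and 1 quasi-likelihood fit of all 18 libraries in 6 groups, with Benjamini-Hochberg adjustment. DESeq2 1.42.0 was an alternative. The edgeR fit and the permutation test were tested on simulated data, and DESeq2 was not. Ratios of raw counts and their exact tests used Python 3.11.15 and scipy 1.17.1. At a total of 21114469 to 47286272 counts per library, the genes had from 36 to 1248 counts per library.

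The genes, the lists and the tests were chosen with earlier results of these data known. The text names the 3 genes, the flowering, cyclin and qPCR reference genes that the study names, and the gene most correlated with each of the 3. None of the identifiers matched the reference gene table (0 matched), so no sequence or coordinate is given. Per the study's methods, apical and basal buds were excised separately from the shoots of each replicate. That equal replicate numbers mark the same shoots was assumed. Deviations from the group means of apical and basal libraries of equal time and number correlated between -0.074 and 0.20, over 0.1 in 2 of 9 pairs. Replicates are separate pools of shoots, so that p-values measure the spread between pools of 1 orchard.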

Additional observations from a re-analysis of the deposited data

Results flagged for a closer look

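In each of the following the change from T1 to T5 in apical buds differed from that in basal buds in a test of the difference itself. For PpCEN the difference was -1.61 in log2 fold change, with changes (T1 over T5) of 0.43 in apical and 2.05 in basal buds (adjusted p = 0.0124 over all genes in edgeR's quasi-likelihood test). The adjusted p was below the 0.05 used to select results here and above the 0.01 used for calls. It was 0.0559 with libraries scaled to TEF2 and UBQ10.

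For the ratio of PpCEN to PpFT the difference was -1.42 on the log2 scale, from changes of 1.63 in apical and 3.05 in basal buds (exact permutation test, p = 0.03, adjusted p = 0.045 over 3 ratios). For the ratio of PpCEN to PpTFL1 it was -2.26, from changes of -0.38 and 1.89 (exact permutation test, p = 0.005, adjusted p = 0.015). The ratio of PpTFL1 to PpFT gave 0.84 (p = 0.055 in the same exact test). Apical and basal buds of equal time and number were taken to come from the same shoots, and this test exchanged labels freely within T1 and T5. With labels exchanged within the pairs, the exact permutation p was 0.0938 for PpCEN to PpFT, so that this difference no longer passed 0.05. It was 0.0313 for PpCEN to PpTFL1, the smallest that 64 assignments allow. Adjusted over 3 ratios, both were 0.0938. These tests of ratios were added after the values had been seen. They rest on the same PpCEN counts, the lowest of which are the 89, 45 and 36 of the basal T5 libraries.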

How the results depend on the processing

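Of the 468 values of single genes under alternatives, 446 kept their direction and side of the limits, 17 passed the limits where the reported value did not, and 5 changed sign. Of 267 ratio values, 12 changed sign, 4 for TFL1/FT between positions over all times and 4, 2 and 2 for CEN/FT, CEN/TFL1 and TFL1/FT between positions at T3. For PpCEN at T5, apical over basal, the limits were passed with DESeq2 (1.22), library-size scaling (1.24) and no filter on low counts (1.22), and the adjusted p was higher than reported with TEF2 and UBQ10 scaling (1.01, adjusted p = 0.0614) and the compared groups alone (adjusted p = 0.0339). Its difference between positions passed with DESeq2 (-1.62), library-size scaling (-1.66) and a fit of the compared groups alone (-1.60), and with TEF2 and UBQ10 scaling it was -1.37 (adjusted p = 0.0559). Scaling to TEF2 and UBQ10 moved PpFT to -0.078 in apical over basal at T5, to 0.32 in apical and 0.33 in basal T1 vs. T5, PpTFL1 to 2.30 and 1.43 in these, and PpCEN to 1.95 in apical buds, with 15178 and 13771 DEGs in place of 4672 and 3750. The share of DEGs higher at T1 in apical buds went from 57.3% to 97.7%.

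The number of DEGs at T5 was 238 as reported, 373 with DESeq2, 52 with the compared groups alone and 157 with the replicate block. At T3 it was 1808, or 749 with the compared groups alone. For the difference it was 370, 701 with DESeq2 and 239 with the replicate block. The block changed no call of the 3 genes. For the difference in CEN/FT between positions, -1.42, the exact permutation p rose from 0.03 to 0.0938 with pairs as the replicate block. With an adjusted p below 0.05 and no fold limit, 4526, 9220 and 1868 genes were called between positions at T1, T3 and T5, 11593 and 10756 in apical and basal T1 vs. T5, and 1708 in the difference.

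Leaving out each library gave 587 to 1096 DEGs between positions at T1, 97 to 489 at T5 and 194 to 643 for the difference. PpCEN ranged from 1.01 to 1.44 at T5 and from -1.88 to -1.40 for the difference. PpFT ranged from -0.28 to 0.092 between positions at T1, changing sign without basal T1 replicate 1, from -0.018 to 0.26 at T5, changing sign without apical T5 replicate 3, and from -1.17 to -0.80 in basal T1 vs. T5. The log2 TFL1/FT ratio between positions over all times ranged from -0.041 to 0.10. The differences between positions in the change of the ratios ranged from 0.60 to 1.02 for TFL1/FT, from -1.68 to -1.18 for CEN/FT, which did not stay under p = 0.05 without apical T1 replicate 3 (exact permutation p = 0.05), and from -2.52 to -2.06 for CEN/TFL1. The cause of these moves was not tested. Fits without 1 library leave its group 2 replicates.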
